A study of Mus musculus with 32 samples.

Results

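Young MPP4 and young CLP were compared in the matrix of raw gene counts. MPP4, the lymphoid-primed multipotent progenitors, and CLPs, the common lymphoid progenitors, were sorted from the bone marrow of C57BL/6 mice that were 10 weeks old. The members were taken from the sample titles, 2 libraries for each fraction, which makes 4 of the 32 libraries of the series. The series also holds young HSCs (hematopoietic stem cells), MPP1, MPP2, MPP3, GMPs (granulocyte and macrophage progenitors) and MEPs (megakaryocyte and erythrocyte progenitors), and the same 8 fractions from mice of 20 months. Young MPP4 were gated as Flt3+, CD48+, CD34+ and CD150- among cells with c-kit and Sca-1 on the surface, without lineage markers and labelled IL-7-, and young CLPs as cells with low c-kit and low Sca-1, without lineage markers and labelled IL-7+. The mixture of lineage antibodies was directed against Gr-1, Ter-119, B220, CD4 and CD8, and an antibody to the IL-7 receptor was part of it except for the CLP stain. The labels name no transgene and no treatment, and give the gate as the difference between the 2 groups.

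MPP4 are the multipotent progenitors that have lost most of the capacity to form platelets and red cells and are biased to lymphoid fates, and FLT3 signalling supports them. CLPs follow them, express the IL-7 receptor and give rise to B cells, T cells, NK cells and innate lymphoid cells, and part of the dendritic cells can be traced to them. Commitment to the B lineage is known to need the transcription factors TCF3 (E2A), EBF1, FOXO1 and PAX5, whereas the recombinase RAG1 and RAG2 and the polymerase encoded by Dntt cut and diversify the antigen receptor genes.

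The 2 young MPP4 libraries had 15140331 and 12471169 counts and the 2 young CLP libraries 12705870 and 12978956. Levels are given as CPM, counts scaled to a library size of 1000000 after TMM normalization, with replicate 1 first, and a count of 0 in a library allows up to 3 counts, a level of 0.186 to 0.228 CPM in MPP4 and of 0.243 to 0.246 CPM in CLPs, which covers counting error only. Over all tested genes the root mean square difference between duplicates was 0.519 on the log2 scale in MPP4 and 0.535 in CLPs, and the means of the 2 fractions were 1.43 apart. Mouse marrow was pooled before sorting in duplicate, and nothing in the labels says that duplicates came from separate animals. The p-values therefore measure the spread between duplicate libraries, which may be technical. That spread was estimated over the 16 groups of all 32 libraries, and not from these 4 alone.

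The label of the CLPs was checked against markers of other cells. The levels of 12 lists of marker genes were summed in each library. The basophil and mast cell list summed to 123 and 128 CPM in young MPP4 and 1837 and 1898 in young CLPs, and to 12.4 and 17.9 in aged CLPs. Prss34, a basophil protease, stood at 1283 and 1308 CPM in the young CLP libraries against 8.97 and 11.9 in MPP4, although the mast cell proteases Mcpt4 and Cma1 were at 0 in all 4 libraries. The eosinophil list summed to 4.21 and 5.48 CPM in MPP4 and 635 and 620 in CLPs, and the neutrophil list to 34 and 42.2 and 626 and 641. The list of plasmacytoid dendritic cells summed to 358 and 381 in MPP4 and 3967 and 3963 in CLPs. It includes Ly6d, Tcf4 and Ccr9, which the lymphoid and homing lists below also hold. Siglech, a surface lectin of plasmacytoid dendritic cells, had 0.371 and 0.685 CPM in MPP4 and 1071 and 1056 in CLPs. Both CLP libraries carried these transcripts at nearly the same level, so neither duplicate stood apart. Genes were called at a Benjamini-Hochberg adjusted p under 0.01 in edgeR's quasi-likelihood test, which held for 21.3% of all tested genes in the direction of a higher level in CLPs and for 20.5% in that of a lower one. Called higher were 9 of 14 basophil and mast cell genes, 6 of 8 eosinophil, 8 of 9 neutrophil, 9 of 10 plasmacytoid dendritic cell, 10 of 11 mature B and plasma cell, 5 of 8 conventional dendritic cell and 4 of 9 macrophage genes. The same call was made for 3 of 10 (30%) mature T cell, 3 of 8 (37.5%) NK cell, 2 of 6 (33.3%) group 2 innate lymphoid cell, 2 of 8 (25%) erythroblast and 3 of 8 (37.5%) stromal and endothelial genes, and 1 basophil and mast cell gene, 1 conventional dendritic cell gene, 2 innate lymphoid genes and 2 stromal and endothelial genes were called lower. Among these counts those of mature T cells (0 without either MPP4 library), NK cells (1 without either CLP library or MPP4 replicate 2) and erythroblasts (0 without CLP replicate 1 or either MPP4 library) rested on single libraries, and DESeq2 called 1, 1 and 2 in their place. Of the conventional dendritic cell genes DESeq2 called 3 higher in place of 5. Low sums were those of mature T cells (88.9 and 93.6 CPM in CLPs) and NK cells (31.1 and 27.1). The group 2 innate lymphoid cell list was also low, with 37.5 and 41.5 CPM in CLPs and 46.4 and 41.1 in MPP4. The defining T cell genes Cd3e, Cd3d and Cd3g had at most 2.63 CPM in a CLP library. The NK receptor genes Klra8 and Klre1 were at 0 in all 4 libraries. In sorted bulk RNA a smaller share of cells of a type and less RNA in each cell cannot be told apart, and the part that other cell types play in the differences below was not tested.

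**Figure D1:**
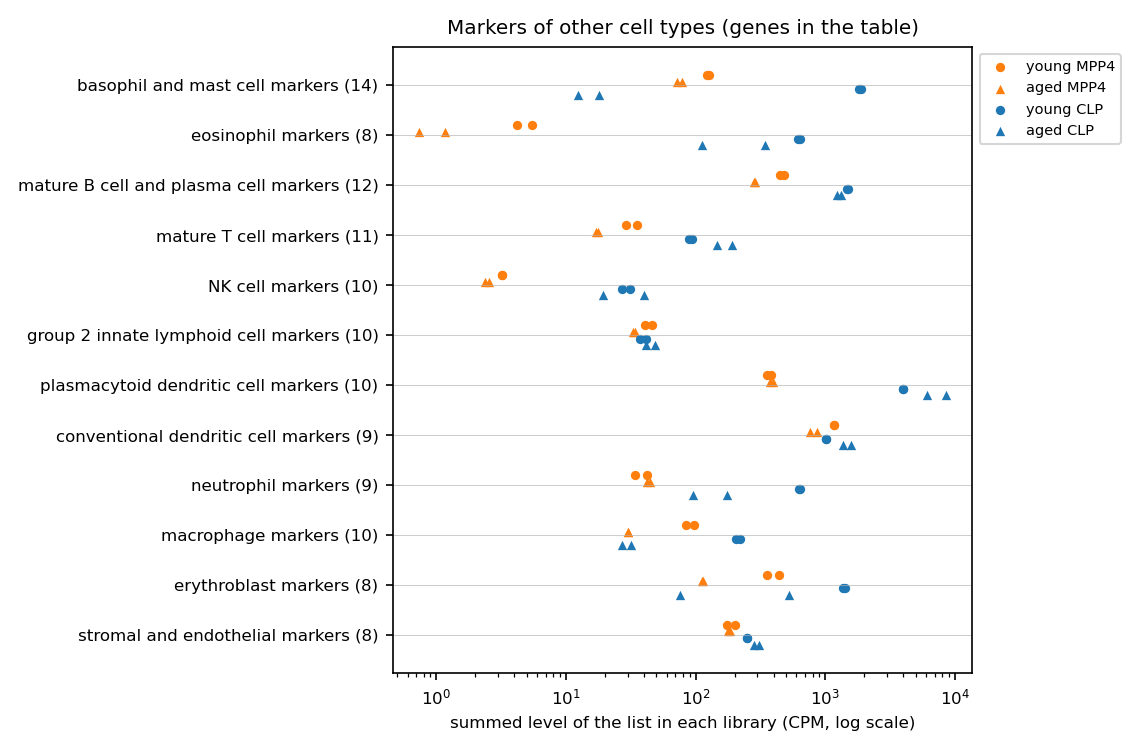
Summed level in CPM on a log axis of 12 lists of markers of other cell types, one point per library, for young (circles) and aged (triangles) MPP4 (orange) and CLPs (blue), with the number of genes of each list in the table. The 2 young CLP libraries lie close together and above the young MPP4 libraries for basophil (1837 and 1898 CPM), eosinophil, neutrophil and plasmacytoid dendritic cell genes, and the aged CLP libraries lie below the young ones for basophil genes (12.4 and 17.9 CPM).

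With edgeR's quasi-likelihood test and Benjamini-Hochberg adjustment, 3013 of 14154 genes (21.3%) were higher in young CLPs and 2901 (20.5%) lower at an adjusted p under 0.01. A change of at least 2-fold in addition left 1146 higher genes (8.10%) and 1522 lower genes (10.8%). The fold changes were centred, with a median of 0.00 on the log2 scale over all tested genes. Among the genes at least 2-fold higher, 782 (68.2%) had their highest mean of the 8 young fractions in CLPs, where 17.5% of all tested genes had it, and 179 (15.6%) in GMPs against 18% of all. Among those at least 2-fold lower, 779 (51.2%) were highest in HSCs against 22.4% of all tested genes, and 258 (17%) in MPP4 against 7.69%. These shares are a description, because a gene chosen for a higher level in CLPs cannot have its peak in MPP4, and one chosen for a lower level cannot have it in CLPs.

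**Figure D2:**
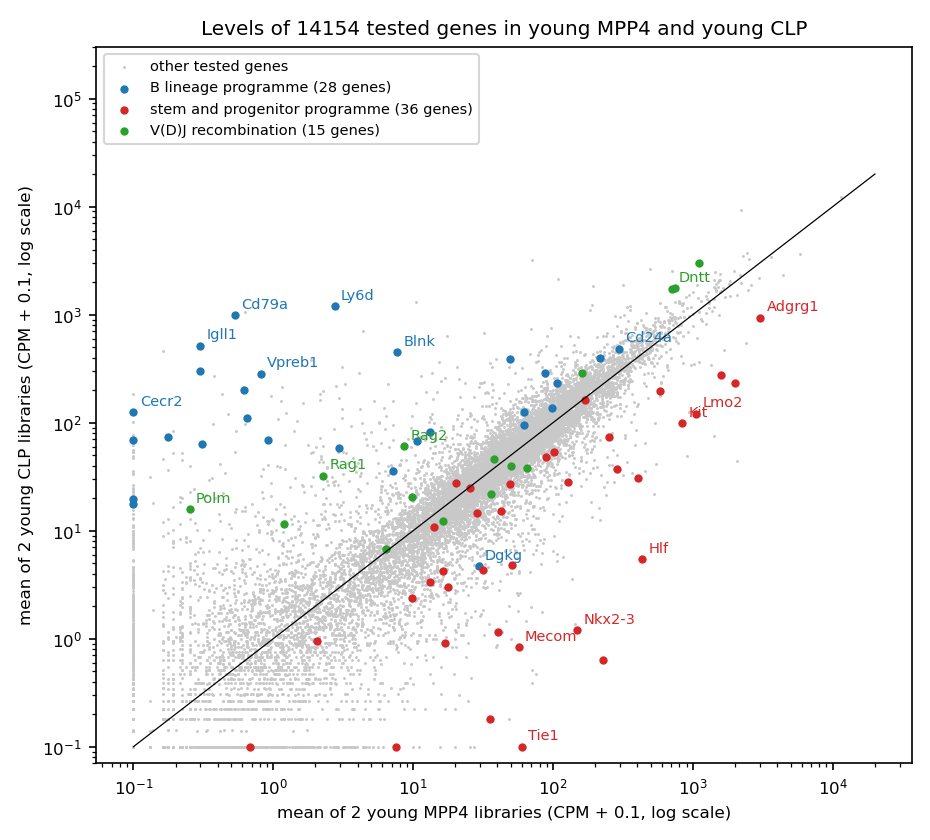
Mean of the 2 young MPP4 libraries (x axis) against the mean of the 2 young CLP libraries (y axis), in CPM with 0.1 added on log axes, for 14154 tested genes, with 3 gene lists in colour and equality as a line. B lineage genes such as Cd79a and Igll1 lie far above the line at under 1 CPM in MPP4, V(D)J genes such as Dntt above it at high levels in both, and stem cell genes such as Hlf and Mecom far below it.

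The largest increases mixed B lineage genes with genes of other cells. Of the 10 called genes with the largest fitted increase, all without overlap between the libraries and with at least 20 CPM on average in CLPs, 9 had no count in either MPP4 library, so their increases are lower bounds against 3 counts in a library. Ms4a1, which encodes CD20 of mature B cells, had 104 and 101 CPM in CLPs, at least 448-fold above MPP4. Fcmr, the receptor for the Fc part of IgM, had 70 and 83 CPM (at least 335-fold) and Vpreb2, a part of the surrogate light chain, 68.9 and 68.1 CPM (at least 300-fold). Vpreb2 is almost identical to Vpreb1, and the way reads were split between the copies makes its level uncertain. Cecr2, a chromatin remodelling factor, had 129 and 118 CPM (at least 542-fold). Spib, an ETS factor of B cells and plasmacytoid dendritic cells, rose from 2 counts in the 2 MPP4 libraries together to 470 and 450 CPM, a ratio of 6737-fold with a counting interval from 1865 to 55636. Klk1 (51.2 and 56.5 CPM, at least 236-fold) belongs to the list of plasmacytoid dendritic cells, Fcer1a (53.6 and 52 CPM, at least 231-fold), the IgE receptor chain, to basophils and mast cells, and Epx (192 and 176 CPM, at least 806-fold), the eosinophil peroxidase, to eosinophils. DESeq2 did not call Fcmr, Klk1, Ms4a1, Upb1 and Vpreb2 (adjusted p between 0.178 and 0.215). Upb1, an enzyme of pyrimidine breakdown, had 60 and 65 CPM and Chst3, a sulfotransferase, 59.2 and 53.1 CPM.

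The largest decreases included receptor, collagen and homeobox genes. Tie1, a receptor tyrosine kinase of stem cells and endothelium, had 60.1 and 59.9 CPM in the MPP4 libraries and no count in CLPs, at least 243-fold lower. Procr, the protein C receptor used to enrich stem cells, had 34 and 36.4 CPM in MPP4 and 2 counts in the 2 CLP libraries together (430-fold, interval 119 to 3552). The collagen genes Col4a1 (74.6 and 76.1 CPM in MPP4, 0.493 and 0.243 in CLPs), Col4a2 (68.1 and 73.4 and 0.329 and 0.486) and Col16a1 (51.8 and 44.3 and 0 and 0.162) were lost together. The others were Myct1, a target of MYC, with a log2 fold change of -7.90, the ubiquitin ligase family gene Trim47 (-7.16), the homeobox gene Nkx2-3 (-7.06) and Ptgs2, which encodes cyclooxygenase 2 (-6.82), and in each of these the CLP libraries had at most 1.31 CPM.

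Transcripts of the antigens used to sort the cells are no independent finding, because the gates used the proteins. Il7r had 4.33 and 5.94 CPM in the MPP4 libraries and 157 and 159 in the CLP libraries (log2 fold change 4.95 ± 0.27, SE, n = 2 and 2, adjusted p = 1.50e-10 by edgeR). Kit fell from 847 and 823 CPM to 98.4 and 99.8 (-3.07 ± 0.12) and Ly6a, which encodes Sca-1, from 151 and 177 to 34.4 and 35.9 (-2.22 ± 0.51), the latter not called by DESeq2 (adjusted p = 0.0293) or without CLP replicate 1 (0.0134) or 2 (0.0118). CD34, CD48 and CD150 were stained for the MPP4 sort and not for that of CLPs, and Flt3 was stained for both, so that its level is not free of either gate. Cd34 fell from 1555 and 1632 CPM to 272 and 279 (-2.53 ± 0.12, adjusted p = 1.19e-13), and Flt3 fell from 1059 and 1066 to 615 and 605, a decrease of 0.80 on the log2 scale that left CLPs with the second highest Flt3 level of the 8 young fractions. Ptprc, which encodes the CD45 family that includes B220, was not called (0.24, 95% interval -0.06 to 0.55). Of the 11 sorting antigens tested, 4 (36.4%) were called higher and 5 (45.5%) lower, beside 21.3% and 20.5% of all tested genes. Fewer were called higher without CLP replicate 1 or MPP4 replicate 1. Beside Il7r the higher ones were 3. Cd48 had 100 and 123 CPM in MPP4 and 162 and 165 in CLPs, Slamf1, which encodes CD150, 0.186 and 0.457 and 2.05 and 1.22 CPM, and Cd8a, of a lineage antigen excluded from both fractions, 0.433 and 0.609 and 8.96 and 7.37 CPM. These calls were lost without MPP4 replicate 1 (adjusted p = 0.0109 for Cd48, 0.0427 for Slamf1 and 0.0282 for Cd8a), and those of Slamf1 and Cd8a also without CLP replicate 1 (0.0336 and 0.0104). Slamf1 was not called in a fit of the 4 libraries alone (0.0296), nor Cd8a without MPP4 replicate 2 (0.0162).

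**Figure D3:**
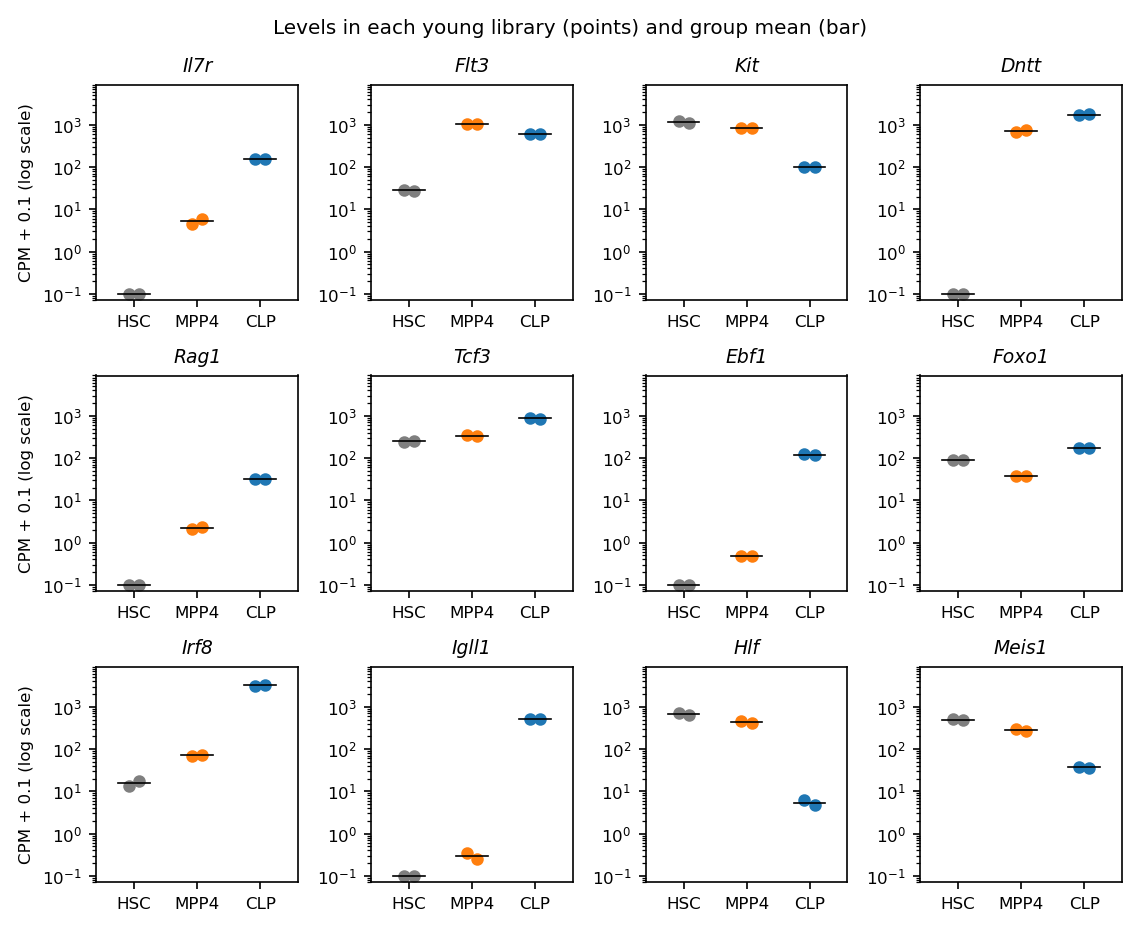
Level of 12 genes in each young HSC, MPP4 and CLP library (points, CPM with 0.1 added, log axis) with the mean of the 2 libraries as a bar. Il7r and Rag1 rise from 0 in HSCs over a low level in MPP4 to 157 and 159 and 32.4 and 32.1 CPM in CLPs, Dntt is already at 687 and 739 CPM in MPP4, and Hlf and Meis1 stay high through MPP4 and are lower in CLPs.

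The lymphoid transcription factors did not move as one group. Of 36, all tested, 18 (50%) were higher and 10 (27.8%) lower in CLPs, beside 21.3% and 20.5% of all tested genes. The list's median log2 fold change was 0.55. The lower ones were 5 without CLP replicate 2 and 6 without MPP4 replicate 1. The factors of B cell commitment rose. Ebf1 had 0.371 and 0.381 CPM in the MPP4 libraries and 122 and 120 in CLPs (8.30 ± 0.33, adjusted p = 3.75e-10). Pax5 had no count in MPP4 and 7.23 and 8.67 CPM in CLPs, at least 34.8-fold higher, though DESeq2 did not call it (adjusted p = 0.0678). Foxo1 rose from 36.7 and 36.7 CPM to 174 and 171 (2.23 ± 0.12). Tcf3, which encodes E2A and was already expressed in MPP4, rose from 353 and 331 CPM to 873 and 857 (1.34 ± 0.10, adjusted p = 2.84e-10). The E protein gene Tcf4 rose as well, by 1.67, and so did the inhibitors of E proteins, Id2 (1.05) and Id3 (2.11), whereas Id1 was lower (-2.42, from 8.85 and 8.3 to 1.23 and 1.94 CPM).

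Irf8, an interferon regulatory factor of B cells, dendritic cells and monocytes, had 68.8 and 72.4 CPM in MPP4 and 3168 and 3266 in CLPs (5.51 ± 0.15). Pou2af1, a coactivator of octamer factors in B cells, rose from 0.248 and 0.304 CPM to 275 and 260 (9.89), and Lef1, a nuclear partner of beta-catenin, from 0.433 and 0.228 to 180 and 185 (9.03). Ets1 rose from 80.8 and 70.9 to 355 and 379 CPM (2.27) and Irf4 from 1.67 and 1.98 to 31.8 and 30.7 (4.10). Irf8, Spib and Tcf4 are also genes of plasmacytoid dendritic cells, whose markers summed to 3967 and 3963 CPM in these libraries. That sum includes Tcf4 itself, and also Ly6d and Ccr9, which are members of the B lineage and homing lists. The Ikaros family divided, with Ikzf3 from 3 counts in the 2 MPP4 libraries to 16.2 and 16.9 CPM, Ikzf2 lower (-2.25 ± 0.29) and Ikzf1 not called (254 and 228 CPM in MPP4, 243 and 253 in CLPs, 95% interval of the log2 fold change -0.18 to 0.26). The general blood factors Runx1, Runx3, Bcl11a and Elf1 were not called either, with log2 fold changes of -0.09, 0.10, 0.01 and 0.08. Factors that fell were Sox4 (668 and 636 to 345 and 344 CPM, -0.92), Spi1, which encodes PU.1 (196 and 209 to 119 and 125 CPM, -0.73), and Dach1 (-3.61).

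The B lineage programme rose almost in full. Of 28 genes, all tested, 27 (96.4%) were called higher and 1, the diacylglycerol kinase gene Dgkg (-2.66), lower. Over all tested genes the shares were 21.3% and 20.5%. This list, like the others, was chosen with earlier results of these data known, so its share is a description and no independent support. The median log2 fold change was 6.13, and 6.08 with the 4 genes that had no count in MPP4 at their bound. The list summed to 1050 and 1055 CPM in the MPP4 libraries and 6836 and 6899 in the CLP libraries. The promoter windows of 4 of these genes are shown because their genes rose together from under 10 CPM, and each holds the E-box to which E proteins such as TCF3 can bind. They are RefSeq windows on GRCm38.p6, from 250 bases before to 50 after the start site, printed 5′ to 3′ on the strand of the gene, and capitals mark the E-boxes CAGGTG (which reads CACCTG when it lies on the other strand) and CAGCTG.
Cd79a: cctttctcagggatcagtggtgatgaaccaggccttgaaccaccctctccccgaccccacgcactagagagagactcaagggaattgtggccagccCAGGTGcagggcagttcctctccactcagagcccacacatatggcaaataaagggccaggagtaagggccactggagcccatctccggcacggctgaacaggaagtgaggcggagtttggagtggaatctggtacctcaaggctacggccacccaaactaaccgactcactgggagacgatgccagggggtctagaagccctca
Igll1: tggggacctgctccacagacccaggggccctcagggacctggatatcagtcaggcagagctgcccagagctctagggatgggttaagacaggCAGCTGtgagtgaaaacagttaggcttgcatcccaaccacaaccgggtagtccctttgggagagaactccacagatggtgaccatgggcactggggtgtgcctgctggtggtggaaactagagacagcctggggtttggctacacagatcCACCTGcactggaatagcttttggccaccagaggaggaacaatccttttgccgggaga
Vpreb1: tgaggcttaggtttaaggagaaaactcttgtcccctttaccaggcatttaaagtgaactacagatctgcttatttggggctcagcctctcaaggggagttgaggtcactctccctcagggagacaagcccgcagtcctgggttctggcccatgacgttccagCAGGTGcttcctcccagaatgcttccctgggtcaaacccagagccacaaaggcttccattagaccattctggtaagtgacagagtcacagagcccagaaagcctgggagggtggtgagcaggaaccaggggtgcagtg
Blnk: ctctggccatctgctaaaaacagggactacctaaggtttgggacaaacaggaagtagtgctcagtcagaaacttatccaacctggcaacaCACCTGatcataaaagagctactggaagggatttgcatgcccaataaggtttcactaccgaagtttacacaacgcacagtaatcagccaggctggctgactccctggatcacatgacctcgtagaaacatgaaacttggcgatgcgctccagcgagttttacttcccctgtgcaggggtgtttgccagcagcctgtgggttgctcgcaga
The windows lie at chr7:24897247-24897546 (+ strand) for Cd79a, chr16:16863936-16864235 (- strand) for Igll1, chr16:16869206-16869505 (- strand) for Vpreb1 and chr19:40994172-40994471 (- strand) for Blnk, so Igll1 and Vpreb1 are neighbours. Counted from the start site, the first base of the CAGGTG box is at position -154 in Cd79a, -8 in Igll1, -88 in Vpreb1 and -160 in Blnk, and Igll1 has a CAGCTG box at -158. The table of windows had entries for 20 of the 28 genes, and 12 of them (60%) had CAGGTG in a window. The share was 21.1% over the 10646 tested genes with a window and 20.2% over all 32851 windows, and 4 of 28 genes of the stem and progenitor list had it. The windows of Vpreb1 and Vpreb2 belong to near-identical genes and are not independent. CAGCTG, which cannot overlap CAGGTG, was found for 7 B lineage genes (35% against 18.1% of the tested genes). The other motifs searched on both strands were AGATAA of GATA factors, GAGGAA of PU.1 and TGGGAA of Ikaros factors. AGATAA was found for 3 B lineage genes (15% against 8.28% of the tested genes). GAGGAA was found for 11 (55% against 31%) and TGGGAA for 6 (30% against 26.8%). Over the genes at least 2-fold higher in CLPs CAGGTG was found for 24.4%, and over those at least 2-fold lower for 23.2%. A match describes the letters of a window and no binding was measured here. The motifs were also chosen with earlier results of these data known, so the shares of windows are a description.

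Among the members, the chains of the pre-B cell receptor were prominent. Igll1, the lambda5 chain of the surrogate light chain, had 0.248 and 0.152 CPM in MPP4 and 514 and 520 in CLPs (11.24 ± 0.20, adjusted p = 3.84e-15). Vpreb1, its partner, rose from 0.743 and 0.685 to 287 and 281 CPM (8.61) and Vpreb3 from 0.495 and 0.533 to 199 and 201 (8.59). Of the signalling pair of the receptor, Cd79a had 0.866 and 0 CPM in MPP4 and 969 and 1006 in CLPs (10.99 ± 0.32), and Cd79b started from 43.5 and 54.2 CPM and reached 382 and 395 (2.99). Downstream of it, the adaptor gene Blnk rose from 7.05 and 8.14 to 460 and 436 CPM (5.89), the kinase gene Blk from 0.557 and 0.533 to 110 and 112 (7.65), and Syk, Lyn and Btk, which MPP4 already expressed, by 0.87, 1.13 and 0.48. Cd22, an inhibitory receptor of B cells, rose from 0.186 and 0.228 to 68.1 and 57 CPM, without a call by DESeq2 (adjusted p = 0.0815). Ly6d, which marks the CLPs that are biased to the B lineage and is also a gene of plasmacytoid dendritic cells, had 2.23 and 3.04 CPM in MPP4 and 1181 and 1200 in CLPs (8.83 ± 0.19). The marker sum of plasmacytoid dendritic cells in CLPs, 3967 and 3963 CPM, includes it. Per kilobase of exon, Ly6d had the highest level of the list in CLPs (1600 CPM per kilobase), followed by Cd79a (678), Cd79b (271), Igll1 (239), Vpreb1 (237) and Vpreb3 (233). Among the other young fractions MEPs also held B lineage transcripts, with a mean of 55.5 CPM of Cd79a and 42.1 of Igll1. Markers of mature B cells rose beside the early genes, since 10 of 11 tested were called higher, among them Ms4a1, Cr2 (6 and 7.94 CPM in CLPs, 0 in MPP4) and Fcer2a (2.72 and 1.9 to 29.7 and 27.8 CPM).

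Of 15 genes of V(D)J recombination, 8 (53.3%) were called higher and 2 (13.3%) lower, beside 21.3% and 20.5% of all tested genes. Rag1 had 2.04 and 2.28 CPM in MPP4 and 32.4 and 32.1 in CLPs (3.90 ± 0.41, adjusted p = 9.48e-07), and Rag2 9.41 and 7.61 and 60.6 and 60 (2.82 ± 0.38). Dntt, the terminal transferase, was already abundant in MPP4 and rose from 687 and 739 CPM to 1714 and 1766 (1.29 ± 0.10). The cofactors of the recombinase, Hmgb1 (1059 and 1151 to 2967 and 3005 CPM) and Hmgb2 (714 and 770 to 1775 and 1746), rose by 1.43 and 1.25. The end joining genes moved in both directions. The ligase gene Lig4 rose from 1.05 and 1.14 to 11.6 and 11.2 CPM (3.37), the polymerase gene Polm from 0 and 0.304 to 15.5 and 16 (6.74) and Xrcc6, which encodes Ku70, by 0.84. Its partner Xrcc5, which encodes Ku80, was lower (62.6 and 68.4 CPM in MPP4, 38.3 and 37.7 in CLPs, -0.79 ± 0.14), as was the polymerase gene Poll (-0.73). The kinase genes Atm and Prkdc and 3 further genes of end joining were not called.

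Genes of the T, NK and innate lymphoid branches were mostly low in both fractions. Of 32, 17 (53.1%) were called higher and 5 (15.6%) lower, beside 21.3% and 20.5% of all tested genes. In CLPs 4 of the higher genes reached 20 CPM. The higher genes were 11 by DESeq2 or without CLP replicate 1, and 9 without either MPP4 library. The median log2 fold change of 3.04 became 2.30 with the 5 genes at 0 in MPP4 at their bound. Notch1, the receptor that starts the T lineage, was not called, with 254 and 196 CPM in MPP4 and 224 and 222 in CLPs (95% interval -0.44 to 0.42). Notch2 (-1.11), the target Hes1 (-0.80) and the T lineage factor Gata3 (16.1 and 17.5 to 8.13 and 8.43 CPM, -1.02 ± 0.18) were lower. Tcf7, which encodes the T lineage factor TCF1, rose from 0.248 and 0.457 to 31.3 and 36.5 CPM (6.59 ± 0.57), while Bcl11b, which fixes the T cell fate, had 0.575 and 1.05 CPM in CLPs and none in MPP4 (at least 3.57-fold), a call that DESeq2 (adjusted p = 0.025), each fit without 1 library (0.0128 to 0.0505), the replicate block (0.0107), no filter (0.012) and a fit of the 4 libraries alone (0.0225) lost. Klrd1, which encodes the NK receptor CD94, rose from 1.05 and 0.989 to 39.5 and 37.4 CPM, Cd28 from 3.65 and 1.67 to 26 and 31.2, and Il2rb, a receptor chain for IL-2 and IL-15, from 0.743 and 0.304 to 14.5 and 15.7.

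**Figure D4:**
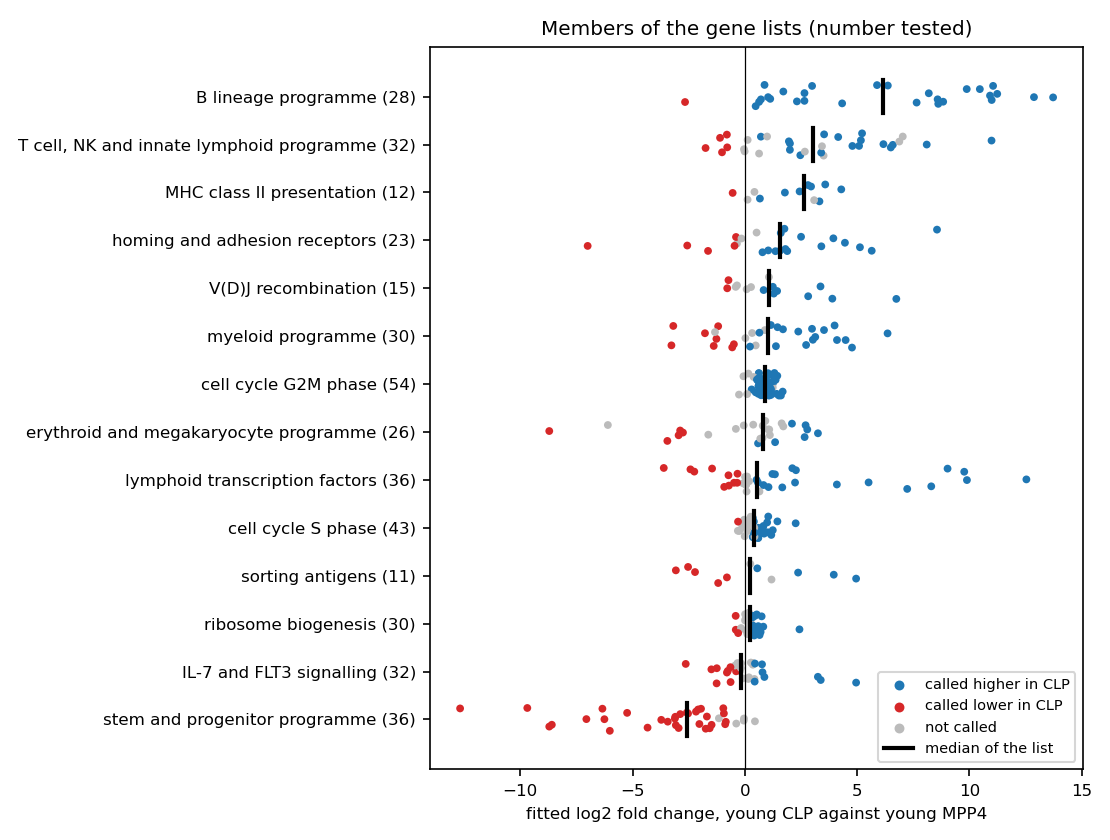
Fitted log2 fold change of young CLPs against young MPP4 for each tested member of 14 gene lists (points; blue called higher, red called lower, grey not called at adjusted p under 0.01), with the list's median as a bar and the number tested in parentheses. The B lineage list has a median of 6.13, the stem and progenitor list of -2.56 and no called increase, and genes without a count in one fraction are placed by the fit.

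Of 32 components of IL-7 and FLT3 signalling, 8 (25%) were higher and 10 (31.2%) lower, beside 21.3% and 20.5% of all tested genes. The share of higher components was thus near that of all tested genes. The median log2 fold change was -0.18. The common chain gene Il2rg fell from 221 and 257 to 137 and 145 CPM (-0.76) and the kinase gene Jak3, which binds that chain, from 401 and 394 to 142 and 140 (-1.49 ± 0.09). Jak1 (-0.36) and Stat5b (-0.39) were slightly lower, and Stat5a was not called (-0.22). The feedback inhibitors diverged, with Socs2 up from 5.32 and 5.4 to 53.5 and 58.1 CPM (3.38 ± 0.18) and Socs3 down from 401 and 366 to 61.1 and 62.4 (-2.64 ± 0.25). Of the survival genes, Bcl2 rose by 0.78 and Bcl2l1 by 0.87, and Mcl1 fell from 955 and 739 to 363 and 345 CPM (-1.26 ± 0.09). Ccnd3, the D cyclin on which early lymphoid expansion depends, rose from 193 and 191 to 1798 and 1856 CPM (3.25 ± 0.08, adjusted p = 2.33e-17).

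Receptors for migration rose more often than they fell, with 15 of 23 tested (65.2%) higher and 5 (21.7%) lower. Over all tested genes the shares were 21.3% and 20.5%. Fewer receptors were called lower without CLP replicate 2. Ccr9, which guides progenitors to the thymus and marks plasmacytoid dendritic cells, rose from 16.2 and 15.3 to 242 and 243 CPM (3.94 ± 0.25), and Ccr7, the other thymus receptor, from 12.1 and 12.1 to 64.3 and 72.7 (2.50). Cxcr4, the receptor of the marrow chemokine CXCL12, rose from 7.86 and 9.28 to 33 and 30.2 CPM (1.89). Selplg, which encodes a glycoprotein for rolling on vessel walls, had 346 and 365 CPM in MPP4 and 1194 and 1215 in CLPs (1.76 ± 0.08). The integrin chains of leukocytes rose, Itgal by 1.04, Itgb2 by 1.36 and Itgb7 by 1.57. Itga6 (-1.64) and the junction genes Esam and Jam3 (-2.57), which mark stem cells, fell, Esam from 16 and 17.8 CPM to 3 counts in the 2 CLP libraries together. Cxcr3, a receptor of activated lymphocytes, rose as well (0.557 and 1.07 to 39.3 and 41 CPM).

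The stem and progenitor programme fell. Of 36, edgeR called none higher (DESeq2 called 0, and 1 had an unadjusted p under 0.05) and 31 (86.1%) were called lower. Over all tested genes 21.3% were called higher and 20.5% lower. The list's median log2 fold change was -2.56, or -2.35 with the 3 genes at 0 in CLPs at their bound. Hlf, a leucine zipper factor of stem cells, had 460 and 404 CPM in MPP4 and 6 and 4.62 in CLPs (-6.35 ± 0.22, adjusted p = 1.67e-15). Mecom, which encodes EVI1, went from 58.7 and 54.9 to 0.329 and 1.13 CPM (-6.26), Meis1 from 297 and 274 to 38 and 35.8 (-2.95), and Lmo2 from 1041 and 1069 to 121 and 121 (-3.12 ± 0.06). Of the Hox genes, Hoxa9 (-2.18) and Hoxa10 (-3.44) fell, and Hoxa7 was not called (20.4 and 19.9 CPM in MPP4, 26.6 and 28.4 in CLPs). Egr1, an immediate early gene, fell from 1972 and 2034 to 245 and 222 CPM (-3.10 ± 0.14). The ligand gene Angpt1 fell from 397 and 415 to 32 and 29.5 CPM (-3.72) and its receptor Tek from 8.91 and 6.01 CPM to 0, at least 30.3-fold. Fli1, Gfi1b and Lyl1 were not called, and Gata2 fell by 0.93 on the log2 scale, from 99.9 and 102 to 48.9 and 56.7 CPM. Gata2 is also a member of the basophil and mast cell list, and in aged CLPs it had 0.695 and 4.31 CPM. That list, Gata2 included, summed to 12.4 and 17.9 CPM in aged CLPs. The part of basophils in the level of Gata2 was not tested. The call of Gata2 was lost without CLP replicate 1 (adjusted p = 0.0171).

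Of 30 genes of the myeloid programme, 17 (56.7%) were higher and 8 (26.7%) lower in CLPs. Over all tested genes the shares were 21.3% and 20.5%, so that of the lower genes was near the share of all. Of the regulators, 3 fell, Cebpa from 46.8 and 45 to 13.9 and 12.9 CPM (-1.78 ± 0.16), Cebpb from 285 and 257 to 26 and 30.1 (-3.27) and Gfi1 from 55.2 and 56.5 to 22.1 and 20.6 (-1.39), whereas Cebpe rose from 0.495 and 0.533 to 4.35 and 4.78 CPM and Cebpd and Klf4 were not called. Csf3r, the receptor for G-CSF, fell from 231 and 232 to 25.6 and 25.2 (-3.19 ± 0.11). Among the granule products, 3 rose, Elane, neutrophil elastase, from 6.68 and 7.53 to 152 and 166 CPM (4.49 ± 0.45), Ctsg from 11 and 11 to 70 and 75.7 (2.73) and Ms4a3 from 1.3 and 1.75 to 27.9 and 24.1 (4.10), and Prtn3 (-1.27) and Lyz2, which encodes lysozyme (-0.56), fell. Mpo had 621 and 651 CPM in MPP4 and 1167 and 1193 in CLPs and was not called (95% interval 0.10 to 1.69), although fits of the 16 young libraries (adjusted p = 8.87e-08) or the 4 libraries compared (1.83e-05) called it. The markers of neutrophils moved with the granule genes, with 8 of 9 higher, such as Ngp from 10.8 and 13.5 to 191 and 195 CPM and S100a9 from 5.57 and 5.71 to 98.1 and 99.1, and their part in these differences was not tested.

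Of the erythroid and megakaryocyte genes, 7 of 26 (26.9%) were higher and 5 (19.2%) lower, shares near those of all tested genes (21.3% and 20.5%). Genes of the platelet branch moved in both directions, since the platelet integrin genes Itga2b (20.1 and 22.1 to 33.6 and 29.7 CPM) and Itgb3 (2.54 and 3.04 to 29 and 24.1) were higher, and Pf4 and Gp1bb were not called. The call of Itga2b was lost without CLP replicate 1 or either MPP4 library (adjusted p 0.0205 to 0.0648). The decreases included Gp9 (-2.76), Nfe2 (301 and 371 to 47.6 and 39.2 CPM, -2.95) and Car2 (-2.88). Hba-a1 had 31.1 and 65 CPM in MPP4 and 315 and 340 in CLPs, a call lost by DESeq2 (adjusted p = 0.0153) and without any 1 library (0.0236 to 0.0983), and Hba-a2 had 293 and 348 and 985 and 1007 CPM and was not called. The 2 alpha globin copies share reads, so their levels are uncertain, and the beta globin genes Hbb-bs and Hbb-bt had at most 0.575 CPM in CLPs. Of 12 genes of MHC class II presentation 8 (66.7%) rose and 1, H2-Ob, was lower, a call lost without any 1 library. Cd74, the invariant chain, rose from 104 and 114 to 2089 and 2172 CPM (4.29 ± 0.29), H2-Aa from 32.4 and 38.7 to 346 and 364 (3.32), and their activator Ciita from 4.7 and 3.42 to 34.3 and 28.9 (2.95). B cells and dendritic cells both express this set, and the conventional dendritic cell marker Itgax rose from 4.95 and 3.42 to 98.9 and 97.6 CPM (adjusted p = 0.0211 by DESeq2), although Batf3 and Zbtb46 stayed at or under 1.05 CPM in CLPs. The part of either cell type was not tested.

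Cell cycle genes rose in CLPs by small factors. Of 54 genes of the G2 and M phases, which include Hmgb2, 48 were higher (88.9% against 21.3% of all tested genes) and edgeR called 0 lower (DESeq2 0, unadjusted p under 0.05 0), with a median log2 fold change of 0.88. Of 43 genes of the S phase 26 were higher (60.5%) and 1 lower (0 without either CLP library or MPP4 replicate 2, and 2 by DESeq2), with a median of 0.41. The largest increases were those of Rrm2, a subunit of ribonucleotide reductase (128 and 133 to 636 and 619 CPM, 2.26 ± 0.08), and of the ubiquitin conjugating enzyme gene Ube2c (92.5 and 98.7 to 301 and 312 CPM, 1.68 ± 0.10). Gtse1 (1.60), Nek2 (1.52) and Anp32e (1.44) followed in the G2 and M list and Clspn (1.45), E2f8 (1.24) and Nasp (1.18) in the S list. Of the genes of ribosome biogenesis, 13 of 30 (43.3%) were higher and 4 (13.3%) lower, beside 21.3% and 20.5% of all tested genes. The lower ones were 1 in a fit of the 4 libraries alone. The list's median was 0.21, and Bysl, a factor of the small subunit, rose most (56.1 and 63 to 319 and 322 CPM, 2.43).

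The step from HSCs to MPP4 was set beside the step to CLPs, although the 2 comparisons share the MPP4 libraries, so that no overlap between them is given. Between young HSCs and young MPP4, 2620 genes (18.5%) were higher in MPP4 and 2278 (16.1%) lower. Flt3 went from 29.3 and 26.5 CPM in HSCs to 1059 and 1066 in MPP4 (5.25 ± 0.20) and then to 615 and 605 in CLPs. Dntt had no count in HSCs, 687 and 739 CPM in MPP4 and 1714 and 1766 in CLPs, so that its first appearance lay before the CLP. Il7r, Rag1, Rag2 and Ly6d also had no count in HSCs and were called higher in MPP4, but at 4.33 and 5.94, 2.04 and 2.28, 9.41 and 7.61 and 2.23 and 3.04 CPM. Satb1, a chromatin organizer of lymphoid progenitors, rose from 16.3 and 20.3 CPM in HSCs to 339 and 303 in MPP4 (4.13) and had 226 and 233 in CLPs, a decrease (-0.48, adjusted p = 0.00274) that was not called without either CLP library or MPP4 replicate 1 (0.0162 to 0.0282). Cd79a, Vpreb1, Lef1 and Tcf7 were not called between HSCs and MPP4, with adjusted p-values of 0.338, 0.518, 0.837 and 0.626, and had at most 1.17 CPM in any of these libraries. Hlf had 714 and 650 CPM in HSCs and 460 and 404 in MPP4, a log2 fold change of -0.66 for the first step against -6.35 for the second, and Nkx2-3 one of -0.42 against -7.06. The first step of both was not called without HSC replicate 1 or MPP4 replicate 2. That of Nkx2-3 was also not called without HSC replicate 2. That of Hlf was not called by edgeR in a fit of the 16 young libraries (adjusted p = 0.0138). For Lmo2 the steps were -0.38 and -3.12. The cell cycle list of the G2 and M phases had 51 of 54 members higher in MPP4 than in HSCs, with a median log2 fold change of 2.57, before the median of 0.88 in the next step.

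**Figure D5:**
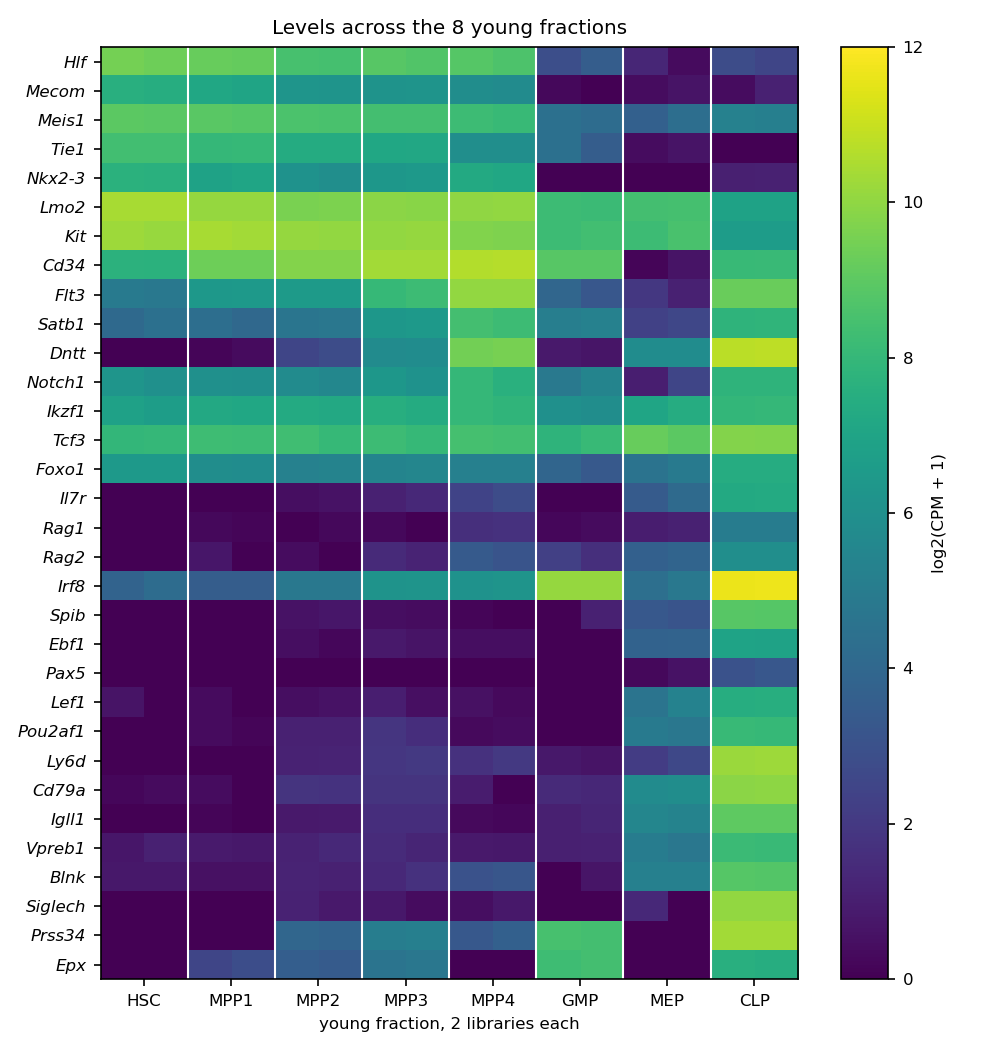
Level of 32 genes as log2(CPM + 1) in the 16 young libraries, 2 for each of 8 fractions. Stem cell genes are bright from HSCs to MPP4, Flt3 and Dntt brighten in MPP4, and the B lineage genes are bright in CLPs and, at a lower level, in MEPs (Cd79a 55.5 CPM against 969 and 1006 in CLPs), while Prss34 and Epx are bright in GMPs and CLPs.

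The contrast of CLPs against MPP4 was also fitted in the aged libraries, and its difference between ages was tested as an interaction. The log2 fold change of CLPs against MPP4, with its sign, was higher in aged than in young mice for 1059 genes (7.48%) and lower for 1440 (10.2%), where the higher ones were 628 without aged CLP replicate 1, 674 without aged MPP4 replicate 1, 697 without young CLP replicate 1 and 1689 by DESeq2. Of the 28 members of the B lineage programme, 2 had a higher and 3 a lower log2 fold change in aged mice. These shares are near those of all tested genes (7.48% and 10.2%). The list's median difference was 0.10, and Igll1 had 286 and 290 CPM in the aged CLP libraries. The stem and progenitor list had 10 members with a higher and 2 with a lower value in aged mice. The log2 fold change of cell cycle genes was lower in aged mice for 38 of 54 genes of the G2 and M phases and 37 of 43 of the S phase, with median differences of -0.84 and -0.82. The S phase list summed to 7577 and 7766 CPM in young MPP4 and 10184 and 10114 in young CLPs, but to 10542 and 10671 in aged MPP4 and 7418 and 8648 in aged CLPs, so that its summed level was higher in CLPs of young mice and lower in those of aged mice. The G2 and M list summed to 10371 and 10736 CPM in aged MPP4 and 10043 and 11691 in aged CLPs, which overlapped. edgeR called 0 members higher in aged mice in the G2 and M list and 0 in the S list, DESeq2 0 and 0, and an unadjusted p under 0.05 held for 0 and 0. The ribosome biogenesis list had 25 of 30 members lower. Rrm2 had 636 and 619 CPM in young CLPs and 399 and 457 in aged CLPs, and 128 and 133 and 267 and 278 in young and aged MPP4 (difference -1.61, adjusted p = 3.01e-09). For Klf2, a factor of lymphocyte trafficking, MPP4 had 264 and 273 CPM and CLPs 617 and 639 in young mice, and 618 and 643 and 245 and 105 in aged mice, a difference of -3.07 (adjusted p = 5.34e-07) with the direction turned. Ccr9 rose more in aged mice (6.83 and 4.19 to 755 and 505 CPM, difference 2.90) and so did Irf7 (67.4 and 68 to 340 and 213 CPM, difference 2.13), which was not called in young mice (93.7 and 95.3 and 87.6 and 88.4 CPM). Both belong to the list of plasmacytoid dendritic cells, which summed to 3967 and 3963 CPM in young and 8545 and 6096 in aged CLPs (377 and 394 in aged MPP4), with 5 of 10 members higher in aged mice and a median difference of 1.65, and the part of these cells in the difference was not tested.

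Among the 5 largest upward differences in aged mice were platelet genes. The chemokine genes of platelets, Pf4 (0.668 and 1.08 to 36.4 and 77.2 CPM) and Ppbp (0.148 and 0 to 31.1 and 15.1 CPM), and Vwf, the von Willebrand factor (0.742 and 1.16 to 15.3 and 29.6 CPM), were higher in aged CLPs than in aged MPP4, and the 2 aged CLP libraries stood farther apart for these genes than the young ones did. Tie1, at 0 in young CLPs, had 0.772 and 2.15 CPM in aged CLPs and 35.2 and 30.6 in aged MPP4. In young CLPs Pf4 had 2.79 and 4.21 CPM, Ppbp 0.822 and 0.972 and Vwf 0.246 and 0. Among the 5 largest downward differences were genes of basophils and neutrophils. Mcpt8, a basophil protease, had 279 and 292 CPM in young CLPs and 0.772 and 2.3 in aged CLPs (difference -7.38 ± 0.43), Ms4a3 27.9 and 24.1 and 0.927 and 0 (adjusted p = 0.0114 without aged MPP4 replicate 1), Ctsg 70 and 75.7 and 8.42 and 21.3, and Fcna, the ficolin of macrophages, 22.7 and 24.8 and 0 and 0. Emilin2, a matrix glycoprotein gene, was higher in CLPs in young mice (7.24 and 6.77 CPM in MPP4, 35.2 and 39.6 in CLPs) and lower in aged mice (36.5 and 36.6 and 3.09 and 3.27), a difference of -5.93 ± 0.20. In these libraries the basophil and mast cell markers summed to 1837 and 1898 CPM in young and 12.4 and 17.9 in aged CLPs, and the neutrophil markers to 626 and 641 and 175 and 96.3, and their part in the age difference was not tested.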

How the data were processed

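Single-end reads were mapped by the authors to mm10 with TopHat2 2.0.13 and Bowtie2 2.1.0, per the labels and the study's methods, and the authors deposited the raw counts per gene used here; the methods name StringTie as the source of raw counts, and strand is not given in the sources used here. The deposited comparisons of ages (fold changes and p-values by DESeq2) and normalized counts were not used. Of 24421 genes in the 32 libraries, 27 carry names turned into dates (0.188% of counts). filterByExpr over the 16 groups left 14154 genes. edgeR 4.0.16 (R 4.3.3) fitted TMM-normalized counts with 1 mean per group, and the quasi-likelihood test was called at a Benjamini-Hochberg adjusted p under 0.01. Log2 fold changes are given with an SE and with intervals from the t distribution built on it. The SE is the absolute log2 fold change divided by the square root of the test's F statistic, and is approximate for genes near 0 counts. The script was tested on simulated data. The duplicates differed by more than counting noise. Lists are described by counts and medians. Named were the 10 largest called changes of at least 20 CPM per direction, members of lists of at most 40 genes, the 4 largest changes of longer lists and the 5 largest age differences per direction; some genes that this rule names are not reported here. The members, gene lists and motifs were chosen with earlier results of these data known. Gene symbols were matched to RefSeq windows on GRCm38.p6. DESeq2 1.42.0, RLE factors, no filter, fewer libraries, a replicate block and other thresholds were tried.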

Additional observations from a re-analysis of the deposited data

Results flagged for a closer look

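The difference between CLPs and MPP4 was tested as an interaction with age, and these named genes passed an adjusted p of 0.01 in edgeR's quasi-likelihood test. Values are differences of the log2 fold change, aged minus young, with n = 2 libraries in each of 4 groups. The log2 fold change of CLPs against MPP4 was higher in aged mice for Ppbp (8.65), Tie1 (8.22), Vwf (8.00), Pf4 (5.21), Ccr9 (2.90) and Irf7 (2.13). It was lower for Fcna (-8.05), Mcpt8 (-7.38), Emilin2 (-5.93), Ms4a3 (-5.40), Ctsg (-4.82), Gata2 (-3.81), Klf2 (-3.07) and Rrm2 (-1.61). Tie1 had no count in young CLPs and Fcna none in aged CLPs, so their fitted differences depend on the prior count of the fit.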

How the results depend on the processing

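The counts of calls between young CLPs and young MPP4 stayed within 1.5 times of those reported under DESeq2, RLE factors, no filter, fits of 16 or 4 libraries, an adjusted p under 0.05 and each omission of 1 library (2160 to 2421 genes higher, 2150 to 2577 lower). A 2-fold minimum in addition left 1146 and 1522 genes, 1031 and 1111 between HSCs and MPP4, and 504 upward and 329 downward age differences. Upward age differences numbered 1689 by DESeq2, 1744 at an adjusted p under 0.05, and 628 to 1114 with 1 library left out. Deviations of same-numbered libraries correlated between -0.0196 and 0.0536 over all tested genes. Counting noise enters these deviations, so they cannot show whether equal replicate numbers share a pool or a day. With the replicate block 3007 genes were higher and 2903 lower. Of 168 named genes 12 lost their call under DESeq2 and 5 to 9 under each omission of 1 library, all with the same direction. DESeq2 gives no adjusted p for 275 genes, which stay out. The genes that changed sign were not called in any of these fits. Bcl11a moved to -0.01 under DESeq2 and RLE, -0.00 without a filter, -0.02 with 4 and -0.04 with 16 libraries, and ranged from -0.13 to 0.08 with 1 library left out. Ikzf1 moved to -0.01 with 16 libraries and ranged from -0.08 to 0.10, Notch1 from -0.23 to 0.16 and Klf4 from -0.03 to 0.70. Between HSCs and MPP4 the ranges were -4.64 to 1.95 for Cd79a, -0.72 to 5.27 for Lef1 and -0.70 to 0.14 for Vpreb1, all near the count floor. The causes were not tested. A fit with 1 library in a group assumes that it varies like the other groups, and with 2 libraries a group small changes may be missed.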
